A study of Homo sapiens with 2 samples.

Results

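Krüppel-like factors (KLFs) are transcription factors that bind GC-rich and CACCC-containing DNA through a block of zinc fingers at the C terminus, and the 10 described here are KLF2, KLF3, KLF4, KLF5, KLF6, KLF7, KLF9, KLF10, KLF11 and KLF13. They were chosen by name from 19775 named genes on the array, and every probe set annotated to 1 of them alone was taken, 32 of 54613 non-control probe sets. The choice was made with earlier results of these data known, among them that KLF2 and KLF4 lay on opposite sides of 0, so all values are given as a description. The data are 2 oligonucleotide arrays of total RNA from PC-3, a human prostate cancer cell line. The control array (siCONTROL_PC-3) had RNA from cells transfected with a control shRNA expression vector, and the knockdown array (siSHISA2_PC-3) RNA from cells with a vector against SHISA2, which encodes an endoplasmic reticulum protein of the Shisa family. The time after transfection, the number of cultures and whether a clone was selected are not given in the sources used here. With 1 array per group there are no replicates, so no difference was tested against the spread between cultures and no p-value exists.

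The zinc fingers are nearly alike across the family, and the members differ in the part before them, which recruits other proteins. KLF2, KLF4, KLF5, KLF6 and KLF7 are mostly known as activators, KLF3 binds the corepressor CtBP, and KLF9, KLF10, KLF11 and KLF13 bind the corepressor SIN3A. Several KLF mRNAs are short-lived and are quickly induced by serum, growth factors or stress. In epithelia KLF4 is known for cell cycle arrest and differentiation and KLF5 for proliferation, and KLF6 was described as a candidate tumour suppressor in prostate cancer.

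The promoters of KLF2 and KLF4 are shown because these genes gave the largest ratios in size among the 10 and lay on opposite sides of 0. KLF2 is known to be switched on through a site for MEF2 proteins, which the kinase cascade of MEKK3, MEK5 and ERK5 activates. Each line is the 250 bases before a start site in RefSeq (GRCh38.p14), 5′ to 3′ on the gene's own strand. The KLF2 window is chr19:16324576-16324825 on the plus strand and the KLF4 window chr9:107489770-107490019 on the minus strand. Capitals mark matches to GGCGGG, the GC box, and to a MEF2-type motif, CTA and TAG with any 4 bases between them, on either strand, and no 2 matches overlap.
KLF2: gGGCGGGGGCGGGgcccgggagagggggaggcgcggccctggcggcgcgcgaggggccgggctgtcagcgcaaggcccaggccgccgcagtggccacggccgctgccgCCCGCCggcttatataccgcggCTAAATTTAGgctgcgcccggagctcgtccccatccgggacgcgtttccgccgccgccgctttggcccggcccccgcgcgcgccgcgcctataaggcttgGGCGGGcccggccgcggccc
KLF4: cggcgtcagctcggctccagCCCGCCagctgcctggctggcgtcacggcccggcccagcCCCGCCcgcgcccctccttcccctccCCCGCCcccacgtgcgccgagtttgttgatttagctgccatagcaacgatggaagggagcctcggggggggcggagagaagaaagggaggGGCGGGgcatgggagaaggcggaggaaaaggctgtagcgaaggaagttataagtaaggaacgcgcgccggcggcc
The KLF2 window held 4 GC boxes and 1 MEF2-type match, at positions -120 to -111 from the start. The KLF4 window held 4 GC boxes and no match to the MEF2-type motif. Of 35116 RefSeq promoter windows of this length, 42.5% held a GC box and 2.36% a MEF2-type match. The table had 13 windows for 8 of the 10 genes, with several for KLF5, KLF7 and KLF11. A GC box was found in 8 of the 13 windows and a MEF2-type match in 2 of 13. The other match was CTAGCGGTAG in a window of KLF11, whose 4 middle bases differ from those of the KLF2 match. GC made up 80.0% of the KLF2 window and 69.2% of the KLF4 window, against a median of 58.0% over all windows. A match describes letters and is no evidence of binding.

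Signals are MAS5 intensities on a linear scale. A signal under the floor of 47.9, the median over both arrays, was raised to it, and a probe set was called measured if at least 1 of its signals was above the floor. All 10 genes and 28 of the 32 probe sets were measured, and the other 4 lay under the floor in both arrays. All log2 ratios are knockdown over control, and each gene is given by 1 measured probe set, the one brightest on average over both arrays. Probe sets bind with different strength, so signals are not compared between genes. How well probe sets repeat each other gave a yardstick for technical error: over 6428 genes, the 2 measured probe sets with the strongest signals had log2 ratios that differed with an SD that corresponds, after division by √2, to 0.286 per probe set. Over the 2827 genes with at least 2 probe sets above 387.3 (the 75th percentile) in both arrays it was 0.150. This yardstick leaves out any variation between cultures and arrays. SHISA2 itself had a signal of 3536 in control and 1506 in knockdown cells, 42.6% of the control signal. Genes of a list that no probe set names alone were not analysed here. Of the 10 genes of the epithelial line list, 7 had such a probe set and 6 were measured. The keratins KRT18 (18340 and 17533.2 in control and knockdown) and KRT8 (2283 and 1989.6) and the adhesion molecule EPCAM (354 and 313) were above the floor in both arrays. KRT5 and KRT14, keratins of basal cells, were under it in the control array and at 53.7 and 53.1 in the knockdown array. E-cadherin, CDH1, was under the floor in both (21.3 and 2.0). The prostate marker KLK3 was above it in both (242 and 251) on 1 probe set, of a kind that can share probes with other transcripts. Its other probe sets were under the floor in both arrays, at 4.8 and 19.4 and at 7.7 and 1.9. CDH1, KLK3 and KRT18 were named after their values were seen.

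**Figure D1:**
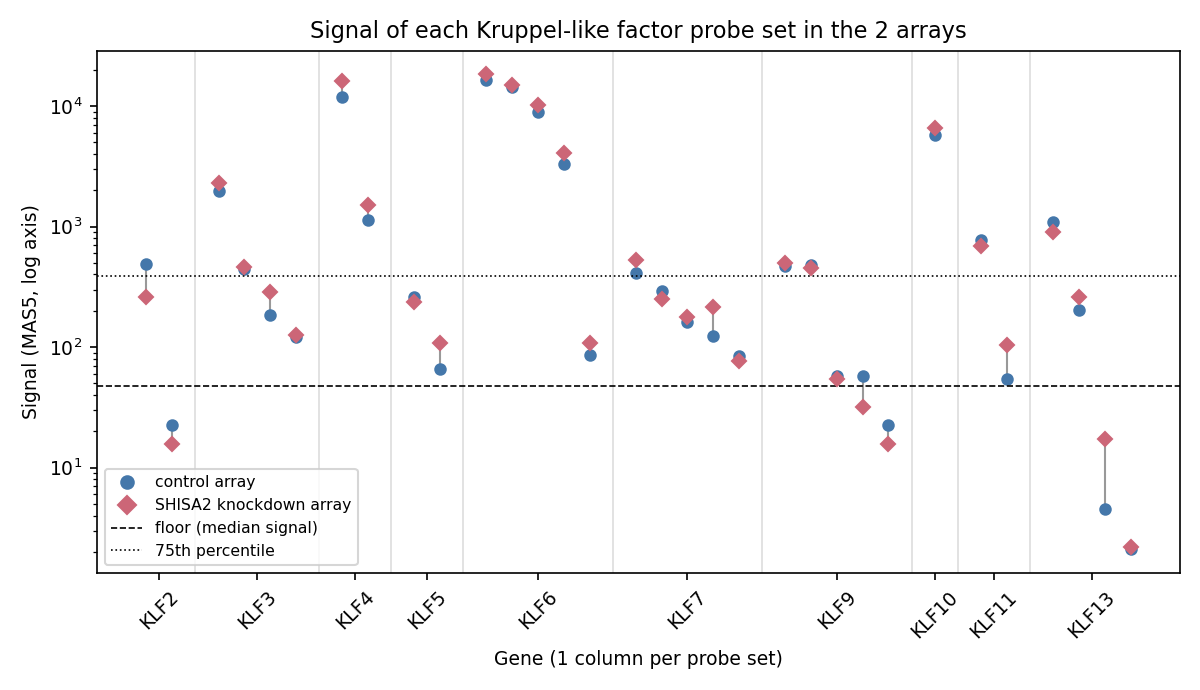
Signal (MAS5, log axis) of each of the 32 Krüppel-like factor probe sets in the control array (circles) and the SHISA2 knockdown array (diamonds), 1 column per probe set and grouped by gene. The first KLF2 probe set lies lower in the knockdown array, both KLF4 probe sets lie higher, and 4 probe sets are under the floor of 47.9 (dashed) in both arrays.

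Of the 10 genes, 6 had a log2 ratio above 0 and 4 below, and 1 was at least 1.5-fold apart, KLF2, on the lower side. Among all 12931 measured genes 52.2% were above 0, 47.8% below 0, 3.77% at least 1.5-fold lower and 5.01% at least 1.5-fold higher. The median ratio over the 10 genes was 0.12, against 0.01 over all measured genes. Sizes above 0.286 were seen for 3 of the 10, KLF2, KLF4 and KLF7, a share close to the 29.3% of all measured genes. In RNA from many cells, fewer cells with a transcript and less of it per cell cannot be told apart.

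KLF2, a factor of quiescent endothelium and lymphocytes that also holds back proliferation, was lower in the knockdown array. Its measured probe set read 487 in control and 259 in knockdown cells, a log2 ratio of -0.91 and 1.88-fold lower. The size of this ratio was 3.19 times the yardstick of 0.286. Its other probe set read 22.5 and 15.6, under the floor in both arrays, so the value rests on 1 probe set, of a kind that can share probes with other transcripts. Among the 1609 genes within 0.5 of its mean log2 signal, 0.808% had a ratio at least as far below 0, KLF2 included. KLF2 was chosen with its ratio known, so this share gives its place and is no test. With the floor raised to 387.3 only the control signal counts and KLF2 is at least 1.26-fold lower, and without the probe sets that can share probes KLF2 has no value.

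KLF4, a factor of differentiating epithelium that is also used to reprogram cells to pluripotency, was higher in the knockdown array on both of its probe sets. The brighter one read 11933 in control and 16015 in knockdown cells, a log2 ratio of 0.42 (1.34-fold). The dimmer one read 1123 and 1522, a ratio of 0.44. The 2 ratios differed by 0.01. Both probe sets are of the kind that can share probes with other transcripts, so KLF4 has no value without that kind. The ratio of 0.42 was 2.83 times the yardstick for bright probe sets and 1.48 times the wider one. Of the 2827 genes with at least 2 probe sets above 387.3 in both arrays, 1.41% had a log2 ratio of 0.32 or more on every such probe set, KLF4 included. Of the 384 genes within 0.5 of its mean log2 signal, 2.08% had a ratio at least as far above 0. KLF4 was chosen with its ratios known, and the size of 0.32 lies below both. These shares thus give its place and are no test. The KLF4 log2 ratio exceeded that of KLF2 by 1.34, so the knockdown-to-control ratios of the 2 genes differed 2.52-fold. These were the highest and lowest of the 10 gene ratios, known when the genes were chosen, so the gap is only a description. Its lower end rests on 1 KLF2 probe set.

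KLF6, which is induced by injury and growth factors, was slightly higher in the knockdown array on each of its 5 probe sets. The brightest read 16376 in control and 18254 in knockdown cells, a ratio of 0.16. The next read 14469.5 and 15044.5, a ratio of 0.06. The others read 8903 and 10282 (0.21), 3311 and 4036.5 (0.29), and 85.9 and 107 (0.32). Every probe set had the same sign, but 4 of the 5 ratios were no larger than the yardstick of 0.286. Of the 4 bright probe sets, 3 had ratios above 0.150.

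KLF5, which promotes proliferation of basal epithelial cells, had probe sets on both sides of 0. Its brighter probe set read 259 in control and 237 in knockdown cells, a ratio of -0.13. The dimmer one, at 66.0 and 107, had a ratio of 0.70. No direction can be given for KLF5 from these signals.

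KLF7, known for its role in neurons and fat cells, had 3 probe sets above and 2 below 0. Its brightest read 412 in control and 526 in knockdown cells, a ratio of 0.35 (1.28-fold). The others read 289.9 and 249 (-0.22), 163 and 177 (0.12), 124 and 214 (0.78), and 83.6 and 76.4 (-0.13). The brightest probe set was thus the only one with both signals above 387.3, and the dimmer ones did not share a direction.

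KLF3, the member that binds CtBP, was slightly higher on all 4 of its probe sets. The brightest read 1982 in control and 2313 in knockdown cells, a ratio of 0.22. The others read 442 and 465 (0.07), 185.5 and 286 (0.62), and 121 and 126 (0.06). The ratio of 0.62 came from the probe set of the 4 that can share probes with other transcripts, and the other 3 lay between 0.06 and 0.22.

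Among the members that bind SIN3A, 2 were above and 2 below 0, all under 0.286 in size. KLF10, induced early by TGF-beta, read 5767 in control and 6624 in knockdown cells on its 1 probe set, a ratio of 0.20. KLF9, a target of glucocorticoid and thyroid hormone receptors, had its 2 brightest probe sets on opposite sides of 0, at 474 and 502 (0.08) and at 483 and 455 (-0.09). Of its other probe sets, 1 read 57.1 and 54.5 (-0.07), 1 was at least 1.19-fold lower from 57.0 to a signal under the floor, and 1 lay under the floor in both arrays.

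KLF11, another factor induced by TGF-beta, read 768 in control and 689 in knockdown cells, a ratio of -0.16. Its other probe set, at 53.9 and 103, had a ratio of 0.94, the highest among the 28 measured, with a control signal near the floor. KLF13, known for a role in T cells and heart, read 1089 and 902 on its brightest probe set, a ratio of -0.27, and 201 and 258 on the next, a ratio of 0.36. Its other 2 probe sets were under the floor in both arrays. For both genes the brighter probe set was lower and the dimmer one higher in the knockdown array.

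**Figure D2:**
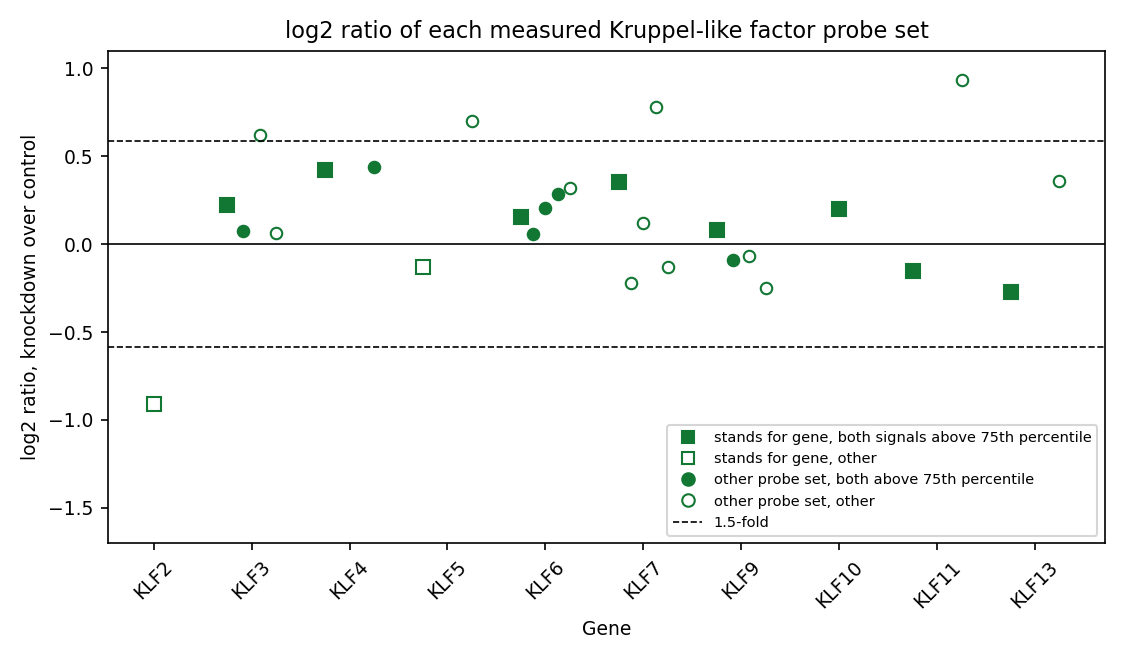
log2 ratio of knockdown over control for each of the 28 measured probe sets, by gene, with squares for the probe set that stands for the gene, circles for the others, and filled symbols where both signals exceed 387.3 (dashed lines, 1.5-fold). Filled symbols lie between -0.27 and 0.44, and the 5 probe sets past 1.5-fold are all open, 4 above and 1 below 0.

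The ratios were spread more widely among dim probe sets. The 14 member probe sets with both signals above 387.3, from 8 genes, had ratios from -0.27 to 0.44 with a median of 0.18. Of these, 11 were above 0, against 50.3% of all such probe sets. The other 14 measured ones ran from -0.91 to 0.94, with 8 above and 6 below 0, where 55.8% of all such probe sets were above 0. All 4 probe sets at least 1.5-fold higher (of KLF3, KLF5, KLF7 and KLF11) were among the latter, where 11.3% of all probe sets of the array were at least 1.5-fold higher. Of the 8 genes with several measured probe sets, 5 had probe sets of both signs, against 54.3% of all such genes. The other 3, KLF3, KLF4 and KLF6, were above 0 on every probe set, which 23.8% of such genes were. Probe sets of 1 gene read the same RNA and are not replicates.

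**Figure D3:**
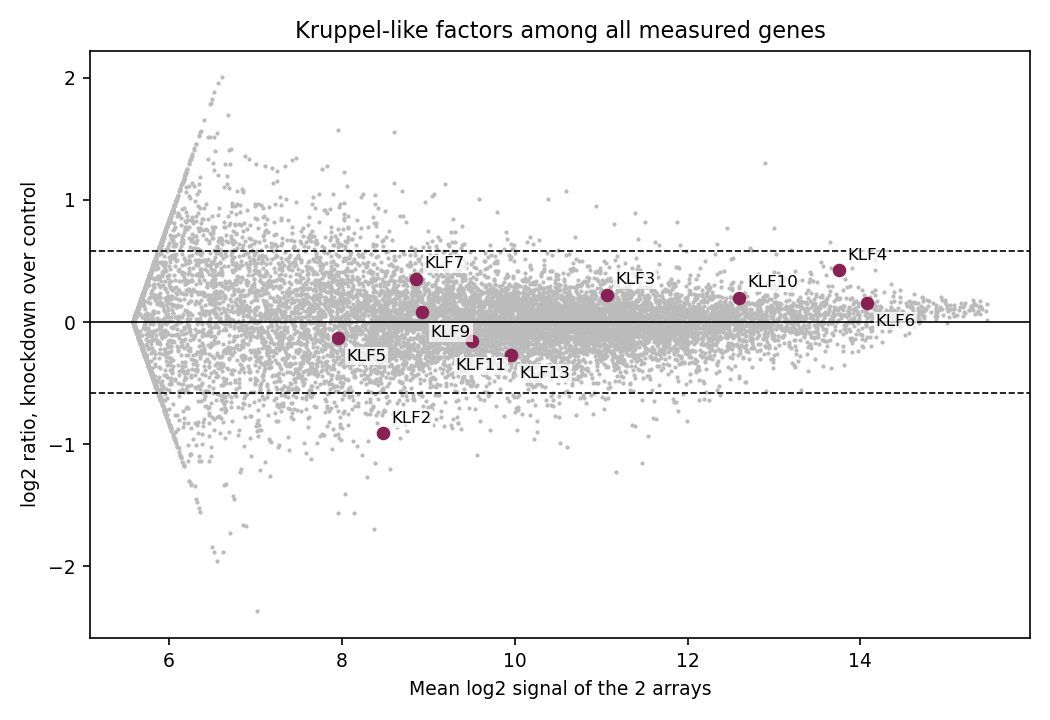
log2 ratio of knockdown over control against the mean log2 signal of the 2 arrays for all 12931 measured genes (grey) and the 10 Krüppel-like factors (labelled), with dashed lines at 1.5-fold. KLF2 lies at the lower edge of the cloud at -0.91 and KLF4 near its upper edge among bright genes at 0.42, while the other 8 lie between -0.27 and 0.35.

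By a fixed rule, the 3 genes nearest to KLF2 in both mean log2 signal and log2 ratio were SELENOP (450.2 in control and 254.5 in knockdown cells, ratio -0.82), EVA1A (516 and 289.6, -0.83) and RGL1 (459 and 270.2, -0.76). Nearest to KLF4 were OASL (11086 and 15087, 0.44), MAFF (12873 and 16413, 0.35) and PMAIP1 (13079.9 and 17809, 0.45). The distances were 0.11 to 0.15 for KLF2 and 0.10 to 0.14 for KLF4. Likeness over 2 arrays says only that these genes had similar pairs of signals.

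Of the other KLF genes, 3 of 8 were measured, and all 3 were below 0, against 47.8% of all measured genes. KLF12, a CtBP-binding repressor, read 684 in control and 623 in knockdown cells (-0.13, with other probe sets from -0.41 to 0.18 and 1 at least 1.43-fold lower from 68.4). KLF15, known for metabolic control, read 67.1 and 57.6 (-0.22). KLF16 read 352 and 346 (-0.02), with 1.04 on its other probe set at 78.9 and 163. The SP proteins share the zinc fingers and bind GC boxes, and 5 of 9 were measured, 2 above and 3 below 0. SP1 read 1621.5 and 1444 (-0.17, with probe sets from -0.19 to 0.39). SP3 read 5866 and 5585 (-0.07), with 0.89 on a dim probe set at 59.9 and 111 and another at 71.9 in knockdown cells against a control signal of 2.3, under the floor. SP4 read 1555 and 1403 (-0.15), with -0.73 on its other probe set at 155 and 93.2. SP2 read 483 and 600.5 (0.31) and SP6 93.8 and 126 (0.43). None of these 8 genes was 1.5-fold apart on the probe set that stands for it, where 8.78% of all measured genes were.

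The kinases and MEF2 factors upstream of KLF2 and KLF4, with the CCM proteins that restrain them, had 10 of 11 genes measured, 3 above and 7 below 0, with a median of -0.09. Among all measured genes 47.8% were below 0. Of the 10, 1 was at least 1.5-fold lower and 0 higher, against 3.77% and 5.01% of all measured genes. MEF2C, a MEF2 factor, read 419 in control and 258 in knockdown cells (-0.70, and at least 1.70-fold lower from 81.3 on its other measured probe set). A further MEF2C probe set was under the floor in both arrays, at 20.7 and 9.1. The MEF2 factor MEF2A read 1476 and 1418 (-0.06, with probe sets from -0.16 to 0.02). MEF2D read 587 and 676 (0.20, with probe sets from 0.11 to 0.40). MEF2A and MEF2D were named after their values were seen. MAP3K3, which encodes MEKK3, read 654 and 460.5 (-0.51, and -0.26 on the other). CCM2, a scaffold that holds MEKK3 back, read 1095 and 835 (-0.39). MAPK7, which encodes ERK5, went the other way at 334 and 403 (0.27, and -0.05 on the other). Both measured probe sets of MAP3K3 were lower in the knockdown array, and a further one was under the floor in both arrays, at 4.6 and 36.6. The other measured MEF2C probe set was measured through its control signal alone. The signal of the brighter one in knockdown cells, like that of KLF2, was under 387.3. A link between these genes and the KLF2 value was not tested.

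Target genes of KLF2 known from endothelium had 4 of 8 measured, and 2 of these in both arrays. Those were F3 (-0.14 at 268 and 244) and EDN1 (-0.03 at 537 and 525, and 0.23 on a probe set at 463 and 544), which KLF2 is known to repress. S1PR1, a receptor that KLF2 activates, and the repressed VCAM1 were measured through their control signals of 61.9 and 57.6 alone, which fixes their side of 0, and were under the floor in knockdown cells. THBD, which KLF2 activates, stayed under the floor at 25.8 and 45.3, and was named after its values were seen. The list gives no direction. Endothelial markers had 3 of 8 measured, with a summed signal of 783 in control and 884 in knockdown cells. CDH5 (156 and 261.5, a ratio of 0.75) carried the higher sum. PECAM1 was at 0.22 on 1 measured probe set and at least 1.48-fold lower on the other, and ESAM was at -0.06. VWF, KDR, TEK, CLDN5 and ERG were under the floor in both arrays. Leukocyte markers had 4 of 8 measured, all dim, with a summed signal of 238 and 335.5. CD79A was at 0.59 and LCP1 at 0.03, ITGAM and CD3E were measured through knockdown signals of 59.9 and 57.3 alone, which adds to that sum by the filter, and PTPRC was under the floor in both arrays. Their part in the KLF2 value was not tested.

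Target genes of KLF4, KLF5 and KLF6 in epithelia had 13 of 17 measured, 7 above and 6 below 0, with a median of 0.03. CDKN1A, the cell cycle inhibitor p21 that KLF4 and KLF6 activate, read 3144 in control and 3955.5 in knockdown cells (0.33). BIRC5, encoding survivin, which KLF4 represses, read 2088 and 1546.5 (-0.43, with probe sets from -0.51 to -0.02). FGFBP1, a carrier of fibroblast growth factors and a KLF5 target, read 145 and 353 (1.28) on its 1 measured probe set. It was the 1 member at least 1.5-fold higher, where 5.01% of all measured genes were. TGFBR1, a TGF-beta receptor that KLF6 activates, read 1281 and 994 (-0.37). Among all measured genes 52.2% were above 0, and as a group the list had no shared direction.

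Regulators of the KLF9, KLF10 and KLF11 genes and of KLF protein stability had no gene past 1.5-fold on the probe set standing for it. Several had dimmer probe sets past 1.5-fold. At least 1.5-fold apart were 8.78% of all measured genes, and 2.1% of those with both signals above 387.3. Among all measured genes 52.2% were above 0 and 47.8% below. Of the glucocorticoid receptor and its targets, 5 of 6 were measured, 3 above and 2 below 0. The receptor NR3C1 was at 0.28 (probe sets from -0.34 to 0.28) and the phosphatase DUSP1 at 0.26. FKBP5 was at -0.25 (0.06 on its other measured probe set) and SGK1 at -0.05. All 6 TGF-beta receptors and SMADs were measured, 2 above and 4 below 0, with TGFBR2 at -0.38 (at least 2.11-fold lower from 101 on its other probe set), TGFBR1 at -0.37, the inhibitory SMAD7 at -0.33 and SMAD4 at 0.11. Ubiquitin pathway genes that act on KLF proteins had 9 of 10 measured, 6 above and 3 below 0. Among them VHL, which targets KLF4, read 444 in control and 633 in knockdown cells (0.51), FBXO32 213 and 284 (0.41, with probe sets from -0.12 to 0.65), SMURF2 8813 and 11066 (0.33, with probe sets from -0.17 to 0.33) and FBXW7, which targets KLF5, 1279 and 1085 (-0.24, with probe sets from -0.24 to 0.31). BTRC (0.05) had a dim probe set at 0.61, and SMURF1 (-0.03) a dim one that was at least 4.22-fold higher, at 202 in knockdown cells against a control signal under the floor. Both were named after their values were seen. Corepressors and coactivators had 12 of 12 measured, 5 above and 7 below 0. Largest in size were HDAC1 at -0.21, EP300 at 0.19 (-0.10 on its other probe set) and KAT2B at -0.18. Next was SAP30, a part of the SIN3 complex, at -0.17 (-0.50 on its other measured probe set). CREBBP (-0.01) had a dimmer probe set at 0.91, and was named after its values were seen.

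**Figure D4:**
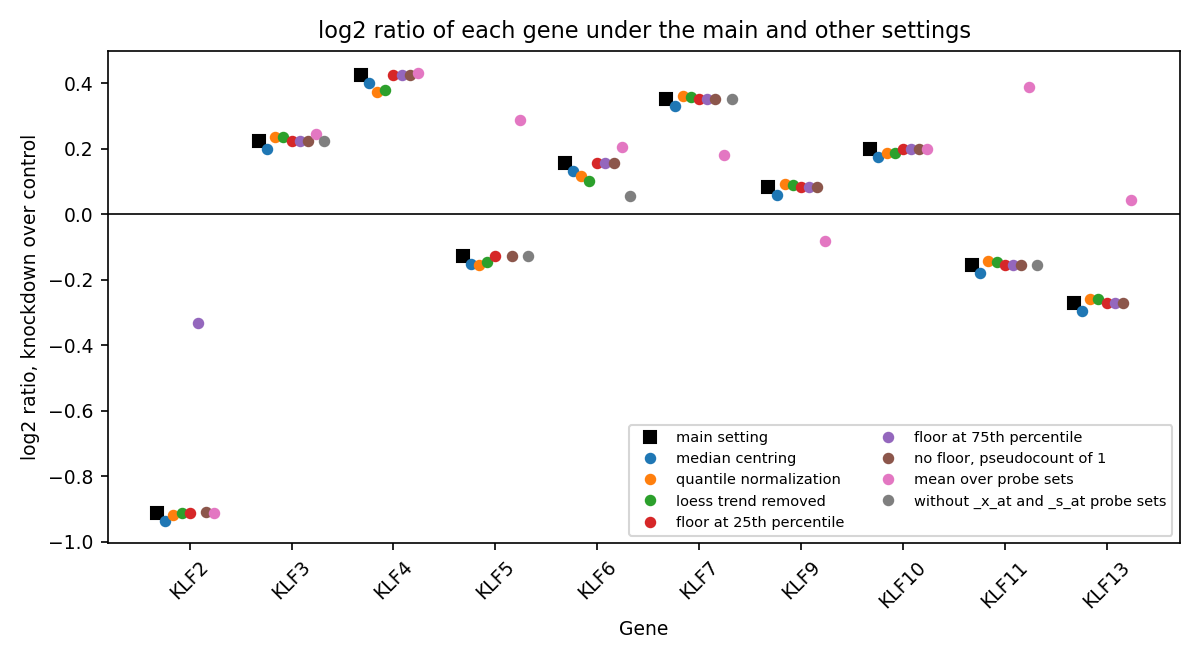
log2 ratio of knockdown over control for each of the 10 genes in the main setting (black squares) and under the other scalings, floors and probe set choices (coloured circles). KLF4 stays between 0.37 and 0.43 in all 7 that give it a value, KLF2 moves to -0.33 with the floor at the 75th percentile, and KLF5, KLF9, KLF11 and KLF13 cross 0 when probe sets are averaged.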

How the data were processed

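The authors deposited 1 probe-set intensity (signal) per array on a linear scale, made with MAS5 per the submitters' processing notes, which give no version here. Such signals near background are noisy. The mean after trimming 2% at each end was 500.1 in both arrays, and no further scaling was applied. Groups came from the sample titles. Of 54675 probe sets, 62 controls were left out. Genes were named from the platform annotation where a probe set had 1 symbol (41097 probe sets), of which 41043 matched RefSeq by gene identifier. Promoter windows were searched with Python 3.11.15, and tables made with pandas 2.3.3 and numpy 2.4.6. The members, the 12 gene lists and the rule for naming genes were chosen with earlier results of these data known: all 10 members, every measured other KLF and SP gene, up to 4 genes per list with the largest ratios in size, and the 3 genes nearest to KLF2 and KLF4. No test stands behind the 1.5-fold threshold. The procedure was tested on a simulated pair of arrays with 2-fold changes planted only in genes with a probe set above 387.3 on average. Its noise had the same spread in log2 at every signal level, and the planted changes were larger than the ratio of any of the 10 genes. Recovery of changes in dimmer genes, or of changes as small as those of the members, was thus not covered. Alternatives were median centring, quantile normalization, a loess trend removed (span 0.3, statsmodels 0.14.6), floors at 11.3 and 387.3, no floor with a pseudocount of 1, averaged probe sets, use of no _x_at or _s_at probe set, and size thresholds of 0.32 (log2) and 2-fold. The number of arrays limits the precision.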

Additional observations from a re-analysis of the deposited data

How the results depend on the processing

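Of 74 log2 ratios of the 10 genes under the alternatives, 70 lay within 0.286 of the value reported. Much of this was fixed in advance, since the floor at the 25th percentile left every ratio unchanged and median centring shifted all alike. The ratios further away came from the floor at the 75th percentile (KLF2) and from averaged probe sets (KLF5, KLF11 and KLF13). KLF2 was at -0.33, a bound, with the floor at the 75th percentile, and between -0.93 and -0.91 under the other 6 that gave it a value. KLF4 ranged from 0.37 to 0.43. Averaging probe sets moved KLF5 to 0.29, KLF11 to 0.39 and KLF13 to 0.04, across 0 because the dimmer probe sets count equally, and KLF9 to -0.08. The count of members above 0 was 6 under every scaling and floor, of 9 measured with the floor at the 75th percentile and of 10 otherwise. Under these, between 48.4% and 52.4% of all measured genes were above 0. With averaged probe sets the count was 8, against 53.6% of all measured genes. Without the _x_at and _s_at probe sets it was 3 of 5 measured, against 51.4%, and KLF2, KLF4, KLF9, KLF10 and KLF13 have no value there. The count at least 1.5-fold apart was 0 with the floor at the 75th percentile and 0 without those probe sets, where 2.11% and 10.5% of all measured genes were. It was 3 at a log2 size of 0.32 and 0 at 2-fold, which 25.1% and 1.48% of all measured genes reach. No paired analysis was possible because each group has 1 array. Signals near the floor limit the dim probe sets.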
